A study of Mus musculus with 9 samples.

Results

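The genes described here encode the proteasome, the protease complex that degrades ubiquitin-tagged proteins, in macrophages sorted from 3 organs of the mouse. Members were chosen by name, as every gene whose symbol starts with Psma, Psmb, Psmc, Psmd, Psme, Psmf or Psmg. The rule found 46 of the 15434 genes in the table, of which 44 were classed as a subunit, activator, inhibitor or assembly chaperone. Psmc3ip, a meiotic recombination cofactor, matched by name alone. Psme2b, an intron-less gene on chromosome 11 with a symbol derived from Psme2, was placed in none of these classes. Psma2, Psmb5, Psmc1 and Psmc6 are not analysed here, so the constitutive counterpart of Psmb8 and part of the alpha and ATPase rings have no value. A value of at least 10 normalised reads in at least 3 of the 9 libraries was reached by 45 members, and the exception, Psma8, is described by its values.

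The study sequenced RNA of untreated, freshly isolated macrophages from testis, epididymis and brain. The mice were C57BL/6J, their age is not given, and each organ has 3 libraries. Macrophages were sorted alike from each organ as live CD45+ CD11b+ F4/80+ Ly6C- CD11c- cells, and brain macrophages are largely microglia. The series asks how macrophages resident in testis and epididymis differ by origin, and the brain libraries serve here as the group against which both are set. All libraries of an organ carry the same mouse number, so organ and mouse number cannot be told apart, and a p-value measures only the spread between libraries, which may be technical. The protocol also speaks of pooling testis and epididymis suspensions in a tube, and the organ labels were taken as they stand.

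The proteasome core, or 20S particle, is a barrel of stacked rings, with alpha subunits forming the gate and beta subunits lining the chamber. Among the beta subunits, the products of Psmb5, Psmb6 and Psmb7 cut peptide bonds in most cells. Interferon gamma induces the immune subunits encoded by Psmb8, Psmb9 and Psmb10, which take their places in newly built particles, and immune cells such as macrophages carry them without infection too. The 19S cap, made of ATPase (Psmc) and non-ATPase (Psmd) subunits, recognises and unfolds ubiquitinated substrates. The PA28 activator encoded by Psme1 and Psme2 opens the gate instead and is itself interferon-inducible. Peptides from these particles feed the class I antigen presentation pathway.

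Libraries held between 2727092 and 4458688 reads in genes, and a value of 1 read equals between 0.808 and 1.11 normalised reads. The authors scaled the read count of each gene by a library factor. All 12 macrophage markers examined had reads in each organ, and their summed level was 85.3 to 89.9 reads per 10000 in testis, 116 to 120 in epididymis and 150 to 165 in brain libraries. The single markers did not share one order: for testis over brain 6 of 12 had a positive log2 fold, with Ptprc and Lyz2 called higher and Itgam, Csf1r and Mertk called lower. The 10 microglia markers summed to 1.8 to 3.19 reads per 10000 in testis, 13.2 to 18.3 in epididymis and 58.7 to 64.6 in brain libraries, with Sall3 and Crybb1 at 0 in all testis libraries. Markers of 4 other cell types had their highest sums in testis libraries. For 9 T and NK cell markers the sums were 2.54 to 3.50 reads per 10000 in testis, 0.483 to 0.779 in epididymis and 0.283 to 0.737 in brain libraries, with Cd3e, Lck and Nkg7 at 0 throughout the brain. For 8 monocyte and neutrophil markers they were 8.06 to 11.6 in testis, 1.09 to 1.51 in epididymis and 1.96 to 2.99 in brain libraries, with S100a8, S100a9 and Retnlg at 0 throughout the testis. Of the 7 of these that were tested, Ccr2 and S100a6 (28.6%) were called higher in testis than in brain. S100a8, S100a9 and Csf3r (42.9%) were called lower, beside 6.82% and 4.83% of all tested genes. For 7 Leydig cell markers the ranges were 3.97 to 10.5 in testis, 0.0910 to 0.643 in epididymis and 0.249 to 0.336 in brain libraries, with Insl3, Cyp17a1, Hsd3b1, Hsd3b6 and Hsd17b3 at 0 throughout the epididymis. For 9 spermatid and spermatocyte markers the sums were 2.41 to 5.52 in testis, 1.49 to 2.63 in epididymis and 0.0171 to 0.168 in brain libraries. Epididymal epithelium markers, 7 genes, summed to 0.727 to 1.22 in epididymis and at most 0.00296 in testis and 0.0187 in brain libraries. Of 16 genes of the dissociation stress response, 14 (87.5%) were called higher in testis than in epididymis, beside 2.49% of all tested genes. Against brain, 11 (68.8%) were called higher in testis, beside 6.82%. Their sums were 555 to 565 reads per 10000 in testis, 222 to 240 in epididymis and 280 to 435 in brain libraries. The part of these differences in the proteasome values was not tested, and in sorted bulk samples fewer cells of a type and less RNA per cell cannot be told apart.

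Differences between organs were tested with limma on log2(value + 1) over all 11766 genes with enough reads, with Benjamini-Hochberg adjustment over all of them and an adjusted p below 0.05 as the call. Unless another test or setting is named, folds below are on that scale. The added 1 shrinks changes of low genes, while a library at or near 0 can enlarge a fold or turn its sign against the means. Psma5 averaged 70.1 normalised reads in testis and 35.0 in epididymis libraries but had a log2 fold of 3.22. Psmb7 averaged 61.3 in testis and 45.5 in brain libraries but had a log2 fold of −0.49.

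Few proteasome genes passed the test between organs, although 12 of 45 tested members were higher in every testis library than in any epididymis library, which is 26.7% beside 11% of all tested genes. Testis macrophages had more mRNA of 3 members than brain macrophages, namely the beta ring subunits Psmb1 and Psmb4 and the immune catalytic subunit Psmb8, and no member was lower. These 3 of 45 tested members are 6.67%, beside 6.82% of all tested genes called higher in testis than in brain and 11.7% called in either direction. No member was called between testis and epididymis, where 4.39% of all genes were, or between epididymis and brain, where 4.79% were. A test over all 3 organs called Psmb1 and Psmb4 (4.44%), beside 11.4% of all genes. Counted in either direction, the share of members called was below that of all genes in each comparison, but it rests on few members. For calls higher in testis than in brain, the shares of 6.67% and 6.82% were nearly equal.

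Promoters were read for 38 members with an entry in RefSeq's table of GRCm38.p6, from 250 bases before to 50 bases after the start of the gene as RefSeq gives it, to set the members against sequences recognised by regulators of these genes. The interferon gamma activated site, TTCNNNGAA, was in the windows of Psmb8, Psmd2 and Psmg1, 3 of 38 members, beside 8.3% of all 32851 windows. The core of the interferon-stimulated response element, GAAA followed by any 2 bases and GAAA again, was in 5 of 38 (Psmb3, Psmd4, Psmd9, Psme1 and Psmg4), beside 3.44%. The antioxidant response element TGACNNNGC, bound by Nfe2l2 and by its relative Nfe2l1, a known driver of proteasome genes, was in 4 of 38 (Psmb6, Psmd9, Psmd12 and Psme4), beside 12.4%. The CCAAT box was in 13 of 38, beside 37.4%. The counts are of genes and the shares over the whole table are of windows. These 38 members had 41 windows, and matches fell in 3, 5, 4 and 13 of the 41 in the order given. Both strands were searched, the first motif reads the same on either strand, and a match is a description of letters and not of binding.

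The sequences below are shown for the called beta subunit with a promoter entry (Psmb4), a constitutive and an immune catalytic subunit (Psmb6 and Psmb10) and the called immune subunit (Psmb8, only the bases around its motif), each 5′ to 3′ on the strand of the gene from RefSeq on GRCm38, with motif matches in capitals. The start of a gene can differ between RefSeq and GENCODE, and each long sequence ends before whichever start lies further upstream. The sequences lie at chr3:94886962-94887208 (minus strand), chr11:70525107-70525356 (plus), chr8:105938445-105938642 (minus) and chr17:34198088-34198116 (plus). The capitals mark the antioxidant response element in Psmb6 and the interferon gamma activated site in Psmb8, and the windows of Psmb4 and Psmb10 hold none of the 4 motifs.
Psmb4: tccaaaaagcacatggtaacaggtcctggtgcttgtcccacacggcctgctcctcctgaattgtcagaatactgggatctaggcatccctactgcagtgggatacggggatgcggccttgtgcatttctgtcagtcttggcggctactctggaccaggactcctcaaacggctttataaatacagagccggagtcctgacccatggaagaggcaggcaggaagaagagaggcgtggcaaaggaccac
Psmb6: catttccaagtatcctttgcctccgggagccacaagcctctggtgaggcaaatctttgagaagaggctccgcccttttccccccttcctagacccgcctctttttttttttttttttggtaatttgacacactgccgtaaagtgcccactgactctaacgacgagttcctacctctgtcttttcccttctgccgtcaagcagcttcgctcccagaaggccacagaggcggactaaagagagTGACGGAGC
Psmb10: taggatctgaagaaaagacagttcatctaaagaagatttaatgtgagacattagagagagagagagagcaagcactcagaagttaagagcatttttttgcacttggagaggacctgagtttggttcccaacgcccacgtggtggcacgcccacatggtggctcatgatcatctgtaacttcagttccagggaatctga
Psmb8: tcctccgctgTTCCCAGAAgatgcccccc

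Psmb1 encodes the beta 6 subunit, which builds the beta ring without a catalytic site and lies at chr17:15475021-15499751 (GRCm38, minus strand, 6 exon blocks). It had 779.6, 618 and 604 normalised reads in testis libraries, 205, 419 and 358 in epididymis libraries and 257, 241 and 261 in brain libraries. Every testis library stood above every other library, and the brain libraries lay close together. The log2 fold of testis over brain was 1.39 ± 0.31 (SE, adjusted p = 0.0088), and that of testis over epididymis was 1.08 ± 0.31 (SE, adjusted p = 0.07), which missed the threshold. Between epididymis and brain the values overlapped, with a log2 fold of 0.31 ± 0.31 (SE, adjusted p = 0.71).

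Psmb4 encodes the beta 7 subunit, which in yeast joins the assembling core last, and lies at chr3:94884093-94886961 (minus strand, 7 exon blocks). It had 804, 857 and 1036 normalised reads in testis libraries, 684, 461 and 735 in epididymis libraries and 415, 314 and 488 in brain libraries. Testis libraries were again above all others, and the lowest epididymis library fell within the brain range. The log2 fold was 1.16 ± 0.27 (SE, adjusted p = 0.01) for testis over brain, 0.54 ± 0.27 (SE, adjusted p = 0.32) for testis over epididymis and 0.62 ± 0.27 (SE, adjusted p = 0.26) for epididymis over brain.

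The other subunits of the beta ring without a catalytic site are Psmb3 (beta 3) and Psmb2 (beta 4). Psmb3 averaged 288 ± 78.2 normalised reads in testis libraries, 175 ± 48.9 in epididymis and 136 ± 46.5 in brain (SD, n = 3 each). Its testis libraries lay above both other organs, but the log2 fold of 1.10 ± 0.43 (SE, adjusted p = 0.13) for testis over brain did not pass. Psmb2 had few reads, with 0, 20.2 and 35.9 normalised reads in testis libraries, 13.6, 8.44 and 0 in epididymis libraries and 16.4, 62.4 and 0.889 in brain libraries, and the organs overlapped throughout. Summed, the 4 genes took 4.96 to 5.72 reads per 10000 in testis libraries, 3.48 to 3.79 in epididymis libraries and 2.49 to 2.98 in brain libraries. These ranges did not overlap, and Psmb1 and Psmb4 made up most of each sum.

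**Figure D1:**
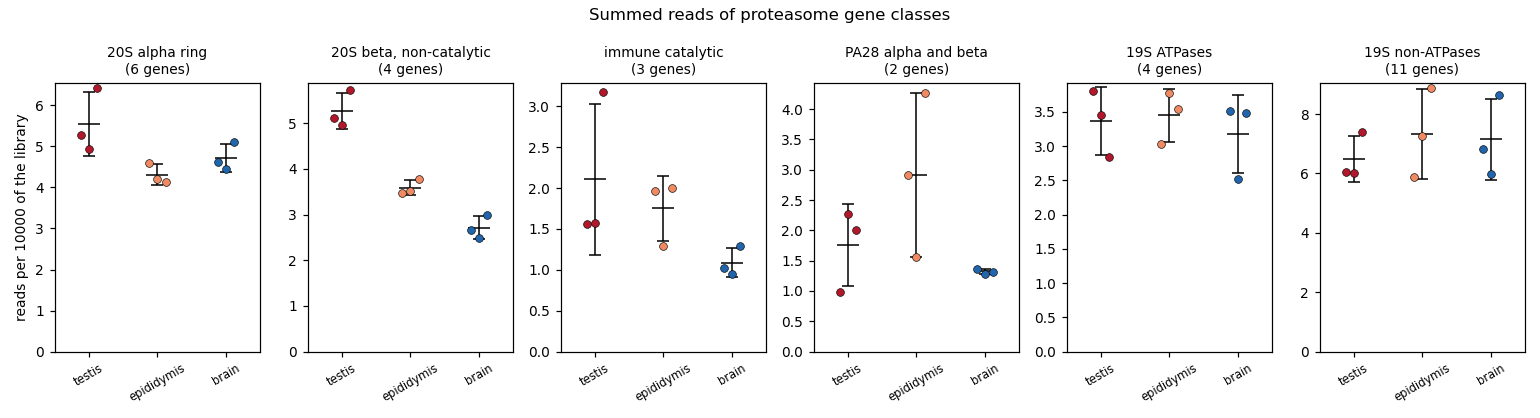
Reads per 10000 of the library summed over 6 classes of proteasome genes, with 1 point per library, the mean (dash) and the SD (bar) of 3 libraries per organ. The non-catalytic beta subunits were at 4.96 to 5.72 in testis, 3.48 to 3.79 in epididymis and 2.49 to 2.98 in brain, whereas both 19S classes overlapped between organs.

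Psmb8 encodes beta 5i, also called LMP7, the immune subunit with chymotrypsin-like activity, and lies in the class II region of the major histocompatibility complex at chr17:34197721-34201454 (plus strand, 6 exon blocks). The interferon gamma activated site in its window begins at position −97 from the RefSeq start, and GENCODE starts the gene further upstream, so that the site lies inside the gene there. Psmb8 had 276, 296 and 552 normalised reads in testis libraries, 338, 223 and 387 in epididymis libraries and 125, 137 and 192 in brain libraries. Testis and epididymis libraries overlapped each other and all of them lay above the brain libraries. The log2 fold was 1.26 ± 0.38 (SE, adjusted p = 0.045) for testis over brain, the largest adjusted p of the 3 calls, and 1.05 ± 0.38 (SE, adjusted p = 0.16) for epididymis over brain, which did not pass. Between testis and epididymis it was 0.21 ± 0.38 (SE, adjusted p = 0.83), with a 95% interval of −0.61 to 1.03. The call for testis over brain was lost in 13 of 21 alternative analyses, among them those without testis replicate 2 or 3, epididymis replicate 1 or any 1 brain replicate. Adjusted p-values reached 0.19 there, and without testis replicate 3, the highest library, its log2 fold was 0.94 (adjusted p = 0.19).

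Psmb9 encodes beta 1i, or LMP2, and is a neighbour of Psmb8 at chr17:34181987-34187764 (minus strand). It had 122, 131 and 379.6 normalised reads in testis libraries, 149, 99.4 and 136 in epididymis libraries and 68.3, 88.1 and 127 in brain libraries. Testis replicate 3 alone stood apart, and the remaining testis libraries lay within the range of the epididymis libraries and close to the highest brain library. No comparison passed: the log2 fold was 0.99 ± 0.54 (SE, adjusted p = 0.3) for testis over brain, with a 95% interval of −0.16 to 2.14. Exons of Psmb9 overlap those of Tap1 on the opposite strand and exons of Psmb8 overlap those of Gm20496, and the library kit does not mark the strand, so reads of each pair cannot be told apart.

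Psmb10 encodes beta 2i, or MECL-1, outside the complex at chr8:105935735-105938444 (minus strand, 8 exon blocks). It had 150.1, 141 and 200.1 normalised reads in testis libraries, 135, 81.6 and 118 in epididymis libraries and 107, 62.4 and 83.5 in brain libraries. The testis libraries lay above all others, narrowly so over the epididymis, and epididymis and brain overlapped. Its log2 fold of 0.96 ± 0.50 (SE, adjusted p = 0.27) for testis over brain did not pass.

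Psme1 and Psme2 encode the alpha and beta subunits of PA28 and lie near each other on chromosome 14, at chr14:55578123-55581529 and chr14:55587441-55591113. Psme1 had 275, 595 and 507 normalised reads in testis libraries, 602, 465 and 1322 in epididymis libraries and 295, 346 and 277 in brain libraries. All epididymis libraries exceeded all brain libraries, and epididymis replicate 3 stood far above the rest. The log2 fold of epididymis over brain was 1.23 ± 0.38 (SE, adjusted p = 0.085), which did not pass with limma or with edgeR but did with DESeq2 on whole reads (adjusted p = 0.024). For testis over epididymis it was −0.72 ± 0.38 (SE, adjusted p = 0.35), a lower mean in testis with overlapping libraries. Exons of Psme1 overlap those of Emc9 on the opposite strand.

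Psme2 had 71.4, 221 and 210.3 normalised reads in testis libraries, 322, 23.4 and 43.1 in epididymis libraries and 106, 44.6 and 133 in brain libraries. The epididymis libraries held both the highest and the lowest value of the gene, and as counted Psme1 and Psme2 did not share a pattern over them. In the same epididymis libraries Psme2b had 0, 207 and 31.3 normalised reads. Whether the authors' counting split reads between Psme2 and Psme2b was not tested, so the Psme2 values are those of the table only. The log2 folds of Psme2 were 1.09 for testis over epididymis, 0.79 for testis over brain and −0.30 for epididymis over brain, none of which passed.

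Over the 5 immune members, the median log2 fold was 0.96 for testis over brain, 0.53 for testis over epididymis and 0.46 for epididymis over brain, beside −0.07, 0.10 and −0.13 over all genes tested in these contrasts. All 5 were positive for testis over brain, also under scaling to equal totals, which moved the median over all genes to −0.29. Markers of other immune cells moved too. Of 8 tested T and NK cell markers, 5 (62.5%) were called higher in testis than in brain, beside 6.82% of all tested genes. Against epididymis, 3 (37.5%) were called higher in testis, beside 2.49%. None was called between epididymis and brain, where 4.79% of all genes were. The 6 dendritic cell markers summed to 1.38 to 2.42 reads per 10000 in testis, 1.36 to 2.29 in epididymis and 0.591 to 0.685 in brain libraries, and they did not share one order. Itgax, the gene of CD11c, a surface protein absent from the sorted gate, had 0, 0 and 21.4 normalised reads in testis libraries, 265, 209 and 294 in epididymis libraries and 0 in all brain libraries, and was called lower in testis than in epididymis and higher in epididymis than in brain. The part of these cells in the values of the immune genes was not tested. The immune catalytic genes together took 1.57 to 3.17 reads per 10000 in testis libraries, 1.30 to 2.00 in epididymis libraries and 0.946 to 1.29 in brain libraries. The lowest epididymis library was just above the highest brain library. With PA28 added, the sums were 2.56 to 5.19 in testis, 2.86 to 6.27 in epididymis and 2.23 to 2.60 in brain libraries, so that testis and brain overlapped.

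**Figure D2:**
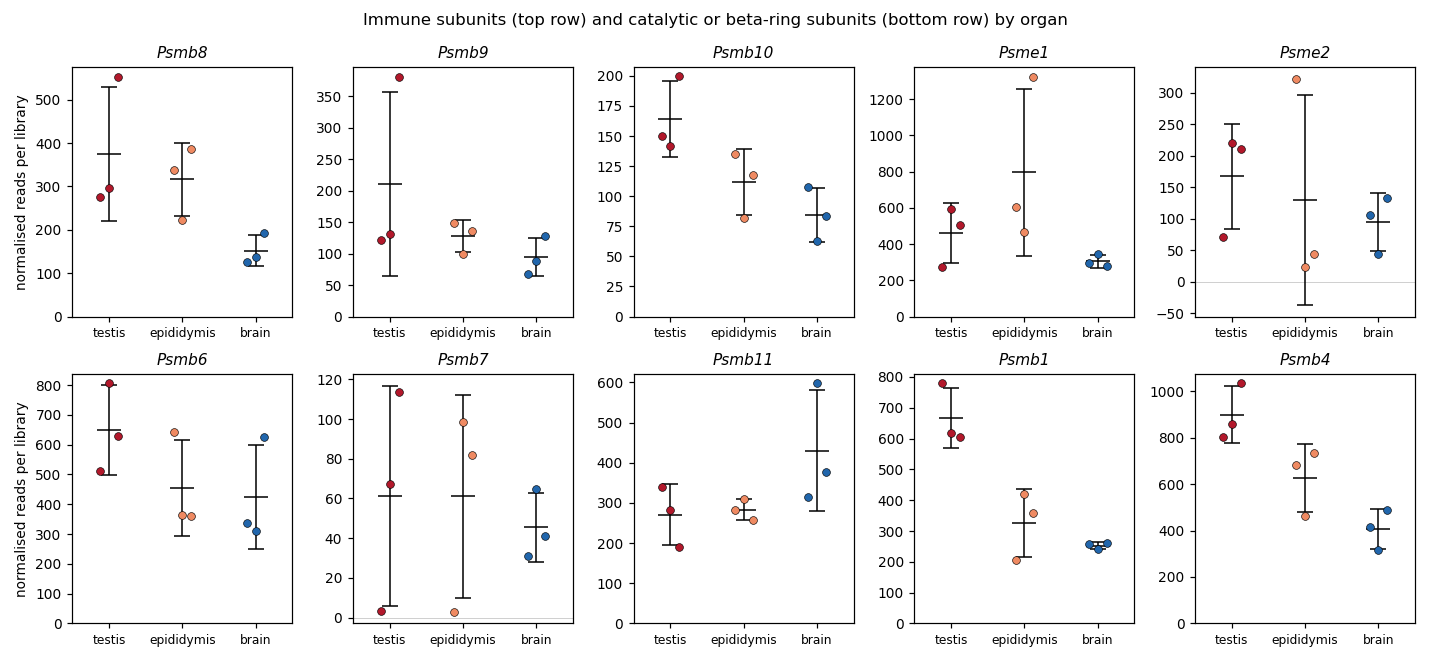
Normalised reads of 10 proteasome genes in each library, with the mean (dash) and SD (bar) of 3 libraries per organ, the immune members in the upper row and other beta subunits in the lower row. Psmb8 libraries of testis and epididymis all lie above the brain libraries, Psmb1 and Psmb4 are highest in testis, and Psmb7 is at about 3 normalised reads in a testis and an epididymis library.

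The constitutive catalytic subunits showed no call. Psmb6, which encodes beta 1 with caspase-like activity, had 510.4, 808 and 628 normalised reads in testis libraries, 641, 364 and 361 in epididymis libraries and 338, 309.9 and 625 in brain libraries. All organs overlapped, and the log2 fold of testis over brain was 0.66 ± 0.34 (SE, adjusted p = 0.26). Psmb7, which encodes beta 2 with trypsin-like activity, had 3.11, 67.1 and 114 normalised reads in testis libraries, 2.73, 98.5 and 81.9 in epididymis libraries and 31.0, 64.7 and 40.9 in brain libraries. Its values of about 3 normalised reads in replicate 1 of testis and of epididymis stood far below their partners, and the 95% interval of its log2 fold of testis over epididymis ran from −3.12 to 3.16. Psmb6 and Psmb7 have named processed pseudogenes, and Psmb7 overlaps Nek6 on the opposite strand, so the authors' counting could split or share their reads.

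Within a library, the log2 ratio of an immune subunit to its constitutive counterpart, taken on log2(value + 1), hardly depends on scaling. Neither ratio is corrected for transcript length, so only its differences between organs are of use. Psmb9 over Psmb6 was −2.05, −2.62 and −0.72 in testis libraries, −2.10, −1.86 and −1.40 in epididymis libraries and −2.29, −1.80 and −2.29 in brain libraries. The means were −1.80 ± 0.97 in testis, −1.79 ± 0.35 in epididymis and −2.13 ± 0.28 in brain (SD, n = 3 each), and the organs overlapped. Psmb10 over Psmb7 was 5.20, 1.06 and 0.81 in testis libraries, 5.19, −0.27 and 0.51 in epididymis libraries and 1.76, −0.05 and 1.01 in brain libraries. Both ratios above 5 come from the libraries where Psmb7 was at about 3 normalised reads, and the remaining values lay at 0.81 and 1.06 in testis, −0.27 and 0.51 in epididymis and −0.05 to 1.76 in brain.

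Psmb11 encodes beta 5t, the catalytic subunit known from cortical thymic epithelium, and has a single annotated exon block at chr14:54621433-54629556. It had 339.6, 283 and 191 normalised reads in testis libraries, 282, 310.5 and 259 in epididymis libraries and 315, 599.7 and 376 in brain libraries. Reads fell in this block in every library, at a level per kilobase of transcript of 63.8 ± 17.7 in testis, 66.8 ± 6.10 in epididymis and 101 ± 35.3 in brain (SD, n = 3 each). Reads of another transcript within this long block cannot be told apart from those of Psmb11 in a table of genes, so the values do not show that beta 5t is expressed in these cells. All epididymis libraries lay below all brain libraries, narrowly, and the log2 fold of −0.55 ± 0.34 (SE, adjusted p = 0.47) for epididymis over brain did not pass. Psma8, which encodes the alpha subunit of the germ-cell proteasome, had 0, 8.08 and 0 normalised reads in testis libraries, 0, 11.3 and 0 in epididymis libraries and 20.04, 0 and 1.78 in brain libraries. The highest of these values was in a brain library.

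The alpha ring, which forms the gate, had 6 measured genes and no call. Per kilobase of transcript, Psma1 was highest and Psma5 lowest in testis, at 586 ± 70.2 and 56.6 ± 9.78 normalised reads. Psma4, Psma6 and Psma7 were higher in every testis library than in any epididymis library. Of these, Psma7 had 343, 301 and 455 normalised reads in testis libraries, 136, 266 and 55.0 in epididymis libraries and 200.4, 302 and 166 in brain libraries, and its log2 fold of testis over epididymis was 1.51 ± 0.50 (SE, adjusted p = 0.12). Psma1, Psma4, Psma5 and Psma6 were higher in every testis library than in any brain library, without passing the test. For Psma1 the margin was less than 1 read, with 549 normalised reads in both the lowest testis and the highest brain library. Psma5 had 56.9, 80.8 and 72.7 normalised reads in testis libraries, 102, 0 and 3.23 in epididymis libraries and 53.7, 35.7 and 31.1 in brain libraries, and its epididymis libraries held both its highest and its lowest values. Over the 12 core genes other than the immune ones (6 alpha, 4 beta, Psmb6 and Psmb7), the median log2 fold was 0.78 for testis over epididymis, 0.78 for testis over brain and 0.08 for epididymis over brain. Of the 12, all were positive for testis over epididymis, 9 for testis over brain and 7 for epididymis over brain, beside 53.5%, 47.7% and 44.9% of all tested genes. Under scaling to equal totals these counts were 10, 9 and 6.

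The 15 measured 19S cap genes with Psmc or Psmd symbols had no call in any comparison. Sem1, a lid subunit without such a symbol, is given with the cofactors below. The 15 genes had a median log2 fold of −0.30 for testis over epididymis, 0.16 for testis over brain and 0.27 for epididymis over brain. Among the ATPases, Psmc3 was the highest per kilobase, at 496 ± 43.5 in testis, 345 ± 53.4 in epididymis and 377 ± 119.7 in brain (SD, n = 3 each), and Psmc4 was the lowest in each organ. The 4 ATPase genes summed to 2.83 to 3.81 reads per 10000 in testis libraries, 3.03 to 3.78 in epididymis libraries and 2.51 to 3.52 in brain libraries. The 11 non-ATPase genes summed to 6.01 to 7.39 in testis, 5.87 to 8.89 in epididymis and 5.98 to 8.63 in brain libraries. In both classes the organs overlapped.

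Psmd8, which encodes the lid subunit Rpn12, came closest to a call between testis and epididymis and is named after its values were seen. It had 267, 244 and 238 normalised reads in testis libraries, 123, 29.1 and 59.3 in epididymis libraries and 146, 83.6 and 143 in brain libraries. Testis libraries lay close together and above all others, and the log2 fold was 2.04 ± 0.56 (SE, adjusted p = 0.053) for testis over epididymis. The call was made with a pseudocount of 5, with DESeq2 and without epididymis replicate 1. Psmd7 (Rpn8), another lid subunit, also had its lowest mean in the epididymis. It had 247, 321 and 399 normalised reads in testis libraries, 210.0, 240.1 and 252 in epididymis libraries and 411, 279 and 385 in brain libraries, and each epididymis library lay below each brain library, with a log2 fold of −0.60 ± 0.32 (SE, adjusted p = 0.39) for epididymis over brain. Per kilobase, Psmd4, the ubiquitin receptor Rpn10, was the highest non-ATPase gene in testis and brain and Psmd6 the lowest. Psmd6 (Rpn7) was at 0 in testis replicate 1, epididymis replicate 1 and brain replicates 1 and 3, while epididymis replicate 3 had 227 normalised reads.

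The 19S base chaperones Psmd5, Psmd9 and Psmd10, which help to assemble the ATPase ring, had no call, and their sums of 0.928 to 1.19 reads per 10000 in testis, 0.550 to 1.20 in epididymis and 1.03 to 1.40 in brain overlapped. Psmd9 was higher in every testis library than in any epididymis library. Among the 20S assembly chaperones, Psmg4 (PAC4) had 145, 67.9 and 140.2 normalised reads in testis libraries, 0, 53.5 and 39.9 in epididymis libraries and 73.8, 20.1 and 51.6 in brain libraries, with a log2 fold of 3.11 ± 1.36 (SE, adjusted p = 0.25) for testis over epididymis, and Psmg1, Psmg2 and Psmg3 were at 0 in at least 1 library each.

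The alternative activators and the inhibitor had no call. Psme4, which encodes PA200, an activator with known roles in spermatogenesis and DNA repair, had 423, 119 and 240.2 normalised reads in testis libraries, 333, 209 and 271 in epididymis libraries and 200.4, 178 and 160.0 in brain libraries. Each epididymis library exceeded each brain library, but the log2 fold was 0.57 ± 0.44 (SE, adjusted p = 0.6). Psme3, which encodes the nuclear activator PA28 gamma, had 6.21, 78.4 and 40.2 normalised reads in testis libraries, 119, 61.0 and 0 in epididymis libraries and 41.0, 45.7 and 30.2 in brain libraries. Psmf1, which encodes the inhibitor PI31, had 40.4, 99.4 and 11.1 normalised reads in testis libraries, 105, 89.1 and 15.1 in epididymis libraries and 59.2, 65.8 and 67.5 in brain libraries. The brain libraries agreed closely for both genes, and values in the other organs spread over more than the brain range on both sides.

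Counted over all 45 tested members, 12 (26.7%) were higher in every testis library than in any epididymis library and none was lower, beside 11% and 8.8% of all tested genes. For testis against brain, 10 members (22.2%, Psma1 by less than 1 read) were higher and none lower without overlap, beside 15.9% and 14.9% of all genes. For epididymis against brain, 4 (8.89%) were higher and 2 (4.44%) lower, beside 10.5% and 11.5%. The 4 were Psmb8, Psme1, Psmc5 and Psme4, and the 2 were Psmb11 and Psmd7.

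Before adjustment, 5 members had p below 0.05 for testis over epididymis (Psma5, Psma7, Psmb1, Psmd8 and Psmg4), all of them higher in testis, which is 11.1% beside 9.65% of all genes in that direction and 17.5% in either. For testis over brain there were 4, the 3 called and Psmb3, all higher in testis, which is 8.89% beside 12.7% in that direction and 23.4% in either. For epididymis over brain there were 3 (Psmb4, Psmb8 and Psme1), all higher in epididymis, which is 6.67% beside 8.22% in that direction and 16.4% in either. These counts of 0 calls held with edgeR for both contrasts with the epididymis, while DESeq2 called Psmd8 for testis over epididymis and Psme1 for epididymis over brain.

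**Figure D3:**
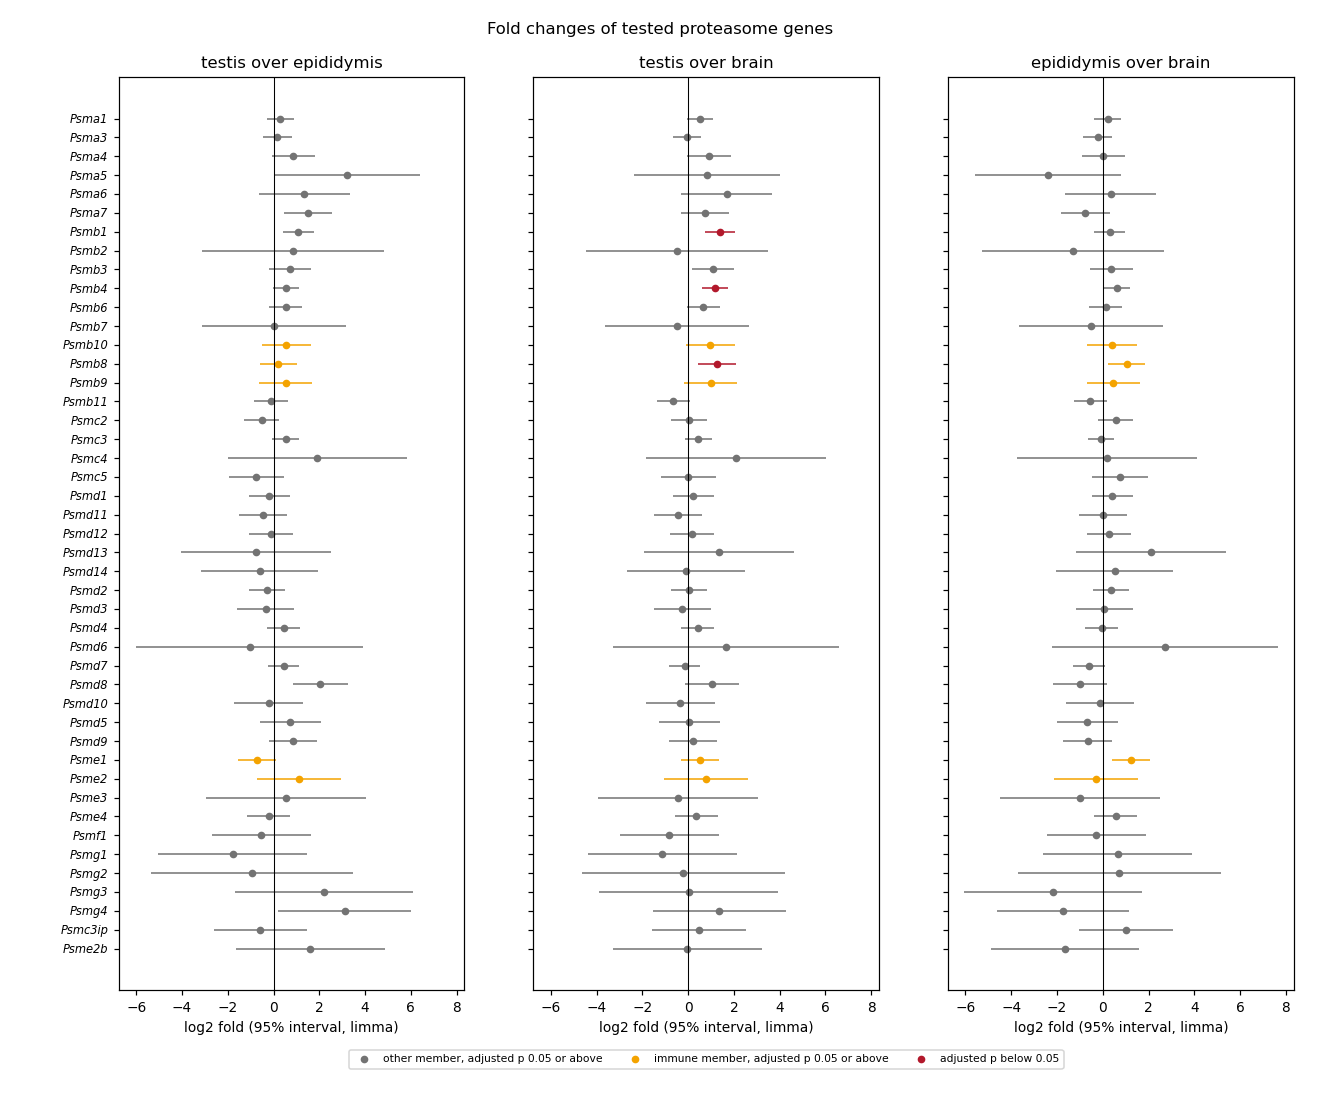
Log2 folds of the 45 tested members with 95% limma intervals for 3 pairs of organs, on log2(value + 1), with the 3 calls in red and immune members in orange. Only Psmb1, Psmb4 and Psmb8 pass, all for testis over brain, and the widest intervals belong to genes with libraries at 0, such as Psmd6.

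The median coefficient of variation of the members was 36.6% in testis, 50% in epididymis and 33% in brain, against 53.5%, 59.3% and 41.4% over all tested genes in the same organs. Of 414 member values, 26 were 0, in 12 genes. In 11 genes a library had at most 5 reads while another of the same organ had at least 50, and these were Psma5, Psmb2, Psmb7, Psmc4, Psmd6, Psmd13, Psmd14, Psme2b, Psme3, Psmg2 and Psmg4. None of these 11 genes was called in a comparison of organs. Psmc3ip averaged 51.8 ± 41.9 normalised reads in testis libraries, 65.5 ± 19.3 in epididymis and 36.1 ± 27.3 in brain, and Psme2b 69.9 ± 53.9 in testis, 79.5 ± 112 in epididymis and 62.0 ± 25.1 in brain (SD, n = 3 each), with overlap between organs in both.

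**Figure D4:**
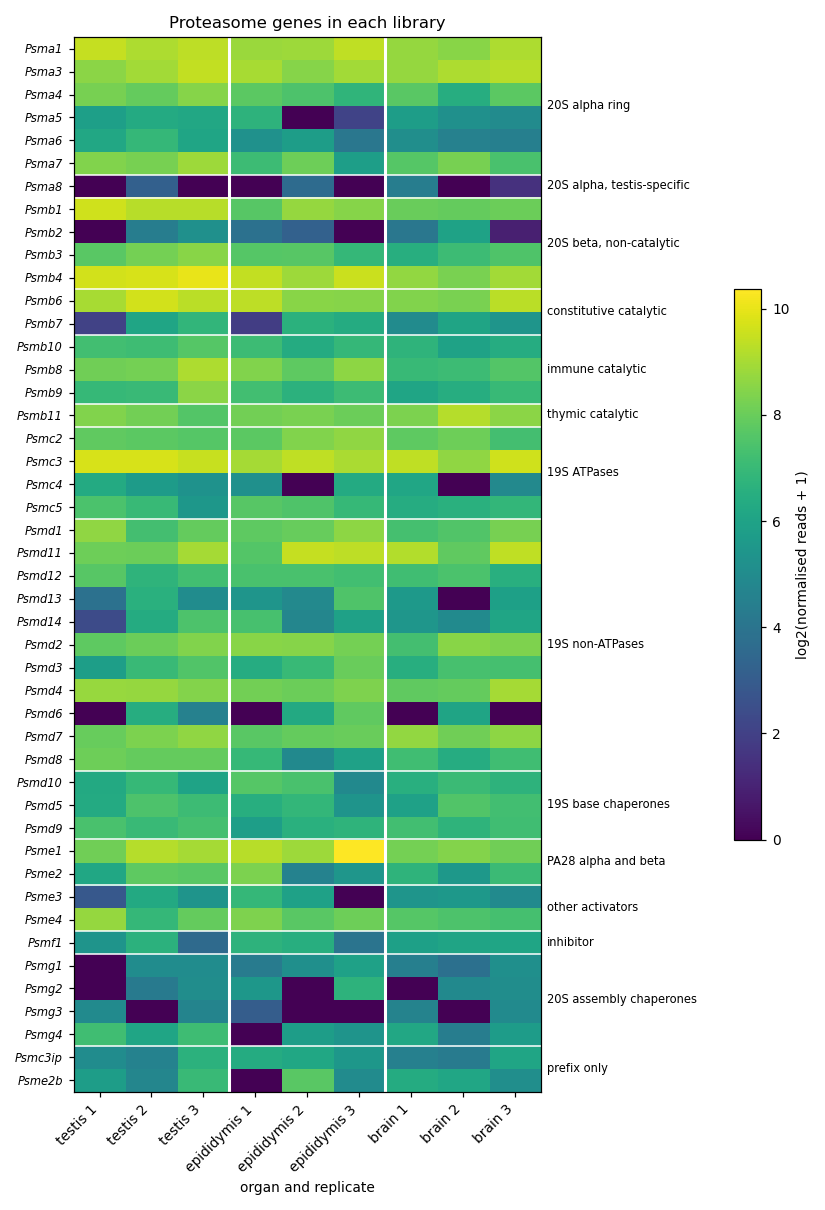
Log2(normalised reads + 1) of all 46 members in the 9 libraries, with genes ordered by class and dark cells marking values at or near 0. Psma8, Psmb2, Psmd6 and the Psmg genes hold most of the values at 0, while Psma1, Psmb4, Psmb6, Psmc3 and Psme1 are bright in all libraries.

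By level per kilobase of transcript, the ranking of members was led in testis by Psmb6 (813 ± 188 normalised reads per kilobase), Psmb4 (760.1 ± 103) and Psme1 (646 ± 232). In epididymis it was led by Psme1 (1119.9 ± 647), and in brain by Psmb6 (532 ± 218) and Psme1 (430.4 ± 49.8; SD, n = 3 each). Psmb8 ranked 12 of 46 in testis, 10 in epididymis and 19 in brain. Psmb9 ranked 17 in testis, 20 in epididymis and 25 in brain, and Psmb10 ranked 19 in testis, 23 in epididymis and 27 in brain. Lengths are medians over protein-coding transcripts of the annotation, and a ratio of genes on this scale still rests on that choice.

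Genes that work with the proteasome were followed on 4 lists. Of 20 tested cofactors and regulators, 3 (15%) were called higher in testis than in brain and none lower, beside 6.82% and 4.83% of all tested genes. Pomp, the chaperone that matures the core and the immune core in particular, had 3000.3, 3314 and 2589 normalised reads in testis libraries, 2241, 1911 and 2695 in epididymis libraries and 1605, 1613 and 1922 in brain libraries, with a log2 fold of testis over brain of 0.79 ± 0.19 (SE, adjusted p = 0.014). Sem1, a small subunit of the 19S lid, had a log2 fold of testis over brain of 1.73 ± 0.39 (SE, adjusted p = 0.0081) and Rad23b, a shuttle for ubiquitinated proteins, one of 0.97 ± 0.29 (SE, adjusted p = 0.041). Nfe2l2, a stress-responsive transcription factor, was called lower in testis than in epididymis and higher in epididymis than in brain. It had 647, 943 and 832 normalised reads in testis libraries, 1313, 1489 and 1842 in epididymis libraries and 651, 749 and 591 in brain libraries, and these log2 folds were −0.94 ± 0.23 (SE, adjusted p = 0.03) and 1.21 ± 0.23 (SE, adjusted p = 0.0056).

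Of 6 tested ubiquitin and E1 genes, 2 (33.3%) were called higher in testis than in epididymis, Rps27a among them, beside 2.49% of all tested genes. Against brain, 3 (50%) were called higher in testis, Rps27a and Ubb among them, beside 6.82%. For epididymis over brain, 1 (16.7%) was called higher, beside 2.99%, and none was called lower in any contrast. Rps27a, which encodes ubiquitin fused to a ribosomal protein, had 3358, 6241 and 6348 normalised reads in testis libraries, 2882, 1555 and 1301 in epididymis libraries and 975, 667 and 1396 in brain libraries. Every testis library was above every other library. Its log2 fold was 1.5 ± 0.33 (SE, adjusted p = 0.017) for testis over epididymis and 2.40 ± 0.33 (SE, adjusted p = 1.5e-04) for testis over brain. Ubb had 846, 1574 and 1797 normalised reads in testis libraries, 1201, 554 and 646 in epididymis libraries and 544, 595 and 792 in brain libraries, with a log2 fold of 1.07 ± 0.33 (SE, adjusted p = 0.045) for testis over brain. Of the 16 stress genes given above, 14 (87.5%) were called higher in testis than in epididymis and 11 (68.8%) than in brain, beside 2.49% and 6.82% of all tested genes. Their part in the calls of ubiquitin genes was not tested.

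On the list for peptide transport and class I loading, 9 genes were tested. For testis over brain 1 was called higher and 1 lower (11.1% each), beside 6.82% and 4.83% of all tested genes. B2m, the light chain of class I molecules, was called higher in testis than in brain, with 1466, 859 and 1824 normalised reads in testis libraries, 1150.0, 830.1 and 602 in epididymis libraries and 445, 284 and 627 in brain libraries and a log2 fold of 1.62 ± 0.34 (SE, adjusted p = 0.0057). Calr, an endoplasmic reticulum chaperone, was called lower in testis than in brain, with a log2 fold of −1.06 ± 0.18 (SE, adjusted p = 8.9e-04), and lower in epididymis than in brain, with −0.66 ± 0.18 (SE, adjusted p = 0.044). Tap1, the peptide transporter gene whose exons overlap Psmb9, had 33.1, 162 and 109 normalised reads in testis libraries, 98.2, 182 and 218 in epididymis libraries and 29.1, 29.0 and 47.1 in brain libraries. Its epididymis libraries all exceeded its brain libraries, but the log2 fold of 2.17 ± 0.73 (SE, adjusted p = 0.11) did not pass.

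Of 21 tested genes of the interferon gamma response, none was called higher in testis than in epididymis and 2 (9.52%) were lower, Irf8 and Cxcl10, beside 2.49% and 1.9% of all tested genes. For testis over brain, 3 (14.3%) were called higher, Ciita and Iigp1 among them, and 1 (4.76%), Irf8, was lower, beside 6.82% and 4.83% of all tested genes. For epididymis over brain, 4 (19%) were called higher, Cxcl10, Ciita and Ifi47 among them, and none was lower, beside 2.99% and 1.8%. Cxcl10, a chemokine, had 185, 287 and 359 normalised reads in testis libraries, 935, 906 and 1229 in epididymis libraries and 138, 132 and 146 in brain libraries, with a log2 fold of 2.87 ± 0.32 (SE, adjusted p = 5.9e-05) for epididymis over brain. Over the list, the median log2 fold was −0.04 for testis over epididymis, 0.04 for testis over brain and 0.27 for epididymis over brain, beside 0.10, −0.07 and −0.13 over all tested genes.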

How the data were processed

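Libraries came from sorted macrophages of testis, epididymis and brain, 3 per organ, made from 10 ng of RNA after a 40 minute digestion with a TruSeq v2 kit that does not mark the strand, per the labels' protocols. The deposited signal values are read counts of genes scaled by a library factor, made by the authors with CASAVA 1.8, Bowtie2 2.2.1, Partek 6.6 and DESeq2 on mm10, per the submitters' processing notes. No source used here gives the role of each tool or the counting rule. Dividing by the value of 1 read gave whole reads for 100% of the values of each library, within a tolerance of 1e-06 reads. Depth is given as reads in genes.

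The main test was limma 3.58.1 in R 4.3.3 with a variance trend on log2(value + 1), with a mean per organ, over the 11766 genes that reached a value of 10 in 3 or more libraries. The deposited table holds normalised values. The factors by which its reads were divided were proportional to median-ratio size factors, within a relative difference of 3.8e-15. The count tests on whole reads were therefore alternatives. With edgeR 4.0.16, 366 genes were called for testis over epididymis, 1056 for testis over brain and 458 for epididymis over brain. DESeq2 1.42.0 called 788, 1583 and 910 in the same contrasts. The scripts were tested on simulated data. Other alternatives changed the pseudocount, the filter, the scaling, the variance trend and the libraries included. Positions and transcript lengths are from GENCODE M21 on GRCm38, which matched all 46 members by symbol.

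The members and the lists of genes were chosen with earlier results of these data known. Values in every library are given for the immune and constitutive catalytic subunits, Psma8, Psmb11, Psme3, Psme4, Psmf1 and each called member. Others are given by range and count, and members outside this rule that are named with values were chosen after their values were seen. From each pathway list, called genes with the smallest adjusted p were named. Some genes of these lists are not reported here. Replicates are numbered in the order of the sample list.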

Additional observations from a re-analysis of the deposited data

How the results depend on the processing

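No paired analysis was possible because the replicate numbers are only an order of the sample list and link no libraries across organs. Of 819 recomputed log2 folds of the named members, 756 kept their direction and their side of the threshold. Psmb1 kept its call for testis over brain in 20 of 21 alternatives, Psmb4 in 19 and Psmb8 in 8. Psmb1 and Psmb4 lost it without a variance trend (adjusted p = 0.077 and 0.12), Psmb4 also without brain replicate 2 (0.054), and Psmb8 at adjusted p-values of 0.051 to 0.19. The count of called members for testis over epididymis was 1 with a pseudocount of 5 and with DESeq2 and 0 to 1 when a library was left out, with Psmd8 called without epididymis replicate 1 and Psma7 without epididymis replicate 2. For testis over brain it was 0 without a variance trend and 1 to 3 when a library was left out, the 1 without brain replicate 2. For epididymis over brain it was 1 with DESeq2. Over the 3 organs it was 1 with libraries rescaled to the same total, 0 without a variance trend and 1 with edgeR. It was 0 to 4 when a library was left out (0 without testis replicate 2, 4 without epididymis replicate 1). Without testis replicate 1 and epididymis replicate 3 together, an alternative chosen after seeing the data, it was 0. The share of all genes called moved as well: for testis over epididymis from 1.63% (no variance trend) to 7.05% (DESeq2), beside 4.39% in the main test, for testis over brain down to 7.03% (without brain replicate 1), beside 11.7%, for epididymis over brain from 2.6% (no variance trend) to 8.14% (DESeq2), beside 4.79%, and over the 3 organs down to 6.26% (no variance trend), beside 11.4%. The cause of these changes was not tested.

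The log2 fold changed sign in 46 recomputed values, none of them a call in either analysis. With edgeR and DESeq2 on whole reads it was 0.41 and 0.45 for Psme2, 0.38 and 0.42 for Psmb7, 0.59 and 0.62 for Psme3 and 0.079 and 0.12 for Psmf1 for epididymis over brain. For testis over brain it was 0.41 and 0.43 for Psmb7 and 0.083 and 0.094 for Psme3, and for testis over epididymis −0.50 and −0.53 for Psme3. Psmb7 for testis over epididymis was −0.0013 with a pseudocount of 5 and −0.14 with libraries rescaled to the same total. Without testis replicate 1 and epididymis replicate 3 together, the log2 fold for testis over epididymis was 0.054 for Psme1 and −0.59 for Psme3, that for testis over brain 0.99 for Psmb7, 0.54 for Psme3 and −0.081 for Psme4, and that for epididymis over brain 0.034 for Psme2, 1.13 for Psme3 and 0.58 for Psmf1. The other sign changes came from leaving out single libraries, and the lowest and highest log2 folds over these are given for each such gene. For testis over epididymis these were −0.28 to 0.13 for Psmb11, −1.52 to 1.5 for Psmb7, −0.11 to 0.39 for Psmb8, −1.59 to 1.86 for Psme3, −0.65 to 0.26 for Psme4 and −1.40 to 0.27 for Psmf1. For testis over brain these were −1.41 to 0.99 for Psmb7, −1.19 to 0.54 for Psme3 and −0.081 to 0.83 for Psme4. For epididymis over brain these were −0.15 to 0.44 for Psmb6, −1.34 to 1.03 for Psmb7, −1.40 to 0.46 for Psme2, −2.32 to 1.13 for Psme3 and −0.77 to 0.58 for Psmf1.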
